A study of Drosophila melanogaster with 2 samples.

Results

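The regions described here are 2733 peaks of middle signal at promoters, from ChIP-seq of the forkhead transcription factor fd3F in Drosophila melanogaster embryos. They were chosen by pooled signal and by distance to a start site, in the authors' list of 30000 peaks called on both replicates together and ranked here by the signal value of each peak. The list of reproducible peaks is the top of that ranking. The 6083 peaks that come just below it, down to rank 10000, make the middle band, and the 2733 of them whose summit lay within 1000 bp of an annotated start site of a protein-coding gene are the members. Signal and distance are therefore given below as descriptions only. The sets placed beside them are the 2264 stronger promoter peaks, which are those of the reproducible list, the 6613 weaker promoter peaks, which rank beyond 10000, and the 3350 peaks of the band away from starts.

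The series holds 1 group of 2 samples, biological replicates 1 and 3, and no second condition. Each is whole embryos of 8 to 18 hours from the transgenic fd3F-GFP line, which stably carries fd3F fused at its C terminus to GFP. Chromatin was sheared by sonication (size range 200 to 800) and precipitated with an antibody to GFP, so the tagged protein and not the native one was recovered. Every tissue of the embryo contributed to each sample, a control experiment is named by the labels but not analysed here, and no label gives the number of embryos or the cells that express the fusion. With 1 group no test between conditions exists, peaks are not replicates of one another, and the read depth is unknown because the files hold peak values only. The intervals below are exact 95% binomial (Clopper-Pearson) intervals that cover counting error only.

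fd3F belongs to the forkhead family, whose DNA-binding domain recognises short words around a TAAACA core. In the fly it is known from chordotonal neurons, the stretch receptors with motile sensory cilia, where it acts with the RFX-type factor Rfx on genes for axonemal dynein arms and other parts of the motile cilium. Promoters of broadly used fly genes often carry the DNA replication-related element (DRE) or the M1BP element, and many such genes lie head to head, sharing 1 intergenic stretch between divergent starts. The fd3F gene itself (FBgn0264954, chrX:3802316-3811040, plus strand, dm6) had no member. The pooled summit nearest to its starts was 4130 bp away, at rank 18883 with a signal of 36.7.

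The forkhead word GTAAACA was searched on both strands in the window of 100 bp to each side of each summit, and 222 of 2733 members held it. That is 8.12%, against 5.52% of windows of the same length just upstream of all protein-coding starts. The 6 windows below show the word close to a summit. The choice was limited to stretches of 61 bp free of annotated exons, and not every chromosome arm was open to it. Within these limits, the windows shown are those of the members of highest signal with the word within 30 bp of the summit. Each is the plus strand of the RefSeq Release 6 genome (dm6), 5' to 3', with the word or its reverse complement in capitals. The Ada window (chr3R:9065107-9065167) is centred 46 bp upstream of the adenosine deaminase gene Ada, at pooled rank 4092, and overlapped peaks of rank 4661 in replicate 1 and rank 4293 in replicate 3. The g window (chrX:13735058-13735118) lies 601 bp inside garnet, an adaptor protein subunit of pigment granule transport, and its rank 4350 peak in replicate 1 had no overlapping peak in replicate 3. The snsl window (chr2L:4907076-4907136) lies 344 bp upstream of its start, and a stronger summit lies 200 bp from its own. The stv window (chr3L:13480129-13480189) lies 285 bp upstream of starvin, a co-chaperone of the BAG family. The CG42395 window (chrX:9577059-9577119) lies 842 bp upstream, and the Nep1 window (chrX:6092377-6092437) 637 bp inside the gene of the metallopeptidase neprilysin 1.
Ada: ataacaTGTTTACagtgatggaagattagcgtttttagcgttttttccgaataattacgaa
g: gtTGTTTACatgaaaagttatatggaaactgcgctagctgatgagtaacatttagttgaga
snsl: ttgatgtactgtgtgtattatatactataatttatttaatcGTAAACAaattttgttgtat
stv: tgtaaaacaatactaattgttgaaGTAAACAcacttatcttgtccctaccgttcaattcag
CG42395: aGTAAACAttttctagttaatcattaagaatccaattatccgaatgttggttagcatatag
Nep1: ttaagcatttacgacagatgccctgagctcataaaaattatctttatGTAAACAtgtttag
The flanks of the word differ among the 6, and the word lies on either side of the summit.

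The DRE, TATCGATA, was held by 128 members, and the M1BP element, GGTCACAC, by 83, each searched on both strands. The DRE share was 4.68%, against 6.21% of windows of the same length just upstream of all protein-coding starts. For the M1BP element it was 3.04% against 3.34%, so neither word was more frequent at members than at starts in general. The windows of highest signal by the same choice are shown. In these examples all 5 summits lay between 42 and 78 bp upstream of the start, with the word within 30 bp of the summit. INPP5E (chr3L:12277583-12277643), a phosphoinositide phosphatase, had its summit 42 bp upstream, Rab30 (chr2L:7032618-7032678), a small GTPase of the Golgi, 42 bp upstream, and catalase, Cat (chr3L:18822514-18822574), 60 bp upstream. For the M1BP element, the mitotic cyclin gene CycB3 (chr3R:24870864-24870924) had its summit 78 bp upstream and CG8300 (chrX:7104792-7104852) 63 bp upstream. Capitals mark the DRE in the top 3 and the M1BP element in the other two.
INPP5E: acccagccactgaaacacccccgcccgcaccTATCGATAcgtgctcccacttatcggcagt
Rab30: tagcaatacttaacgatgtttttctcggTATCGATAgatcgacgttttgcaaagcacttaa
Cat: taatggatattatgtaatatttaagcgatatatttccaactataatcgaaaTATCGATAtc
CycB3: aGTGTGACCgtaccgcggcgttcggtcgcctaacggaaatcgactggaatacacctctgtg
CG8300: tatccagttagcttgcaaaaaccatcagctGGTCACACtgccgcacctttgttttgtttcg
All 5 overlapped a peak in each replicate list, with ranks between 2596 and 5658 in replicate 3 and between 3746 and 10698 in replicate 1.

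Members at 2 genes of cilium assembly are also shown, as examples whose windows held an X-box (the word of RFX factors) or an M1BP element. They were chosen after their values were seen, and from the same chromosome arms as the windows above. Capitals mark, for BBS1 (chr3L:7125534-7125673), a DRE and an M1BP element, and for IFT46 (chr2L:18616107-18616254), an X-box and, farther right, the reverse complement of TAAACA. Each is the stretch of the summit window free of annotated exons, plus strand.
BBS1: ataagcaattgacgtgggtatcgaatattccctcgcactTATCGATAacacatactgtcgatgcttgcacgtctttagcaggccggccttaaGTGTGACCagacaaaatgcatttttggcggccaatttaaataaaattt
IFT46: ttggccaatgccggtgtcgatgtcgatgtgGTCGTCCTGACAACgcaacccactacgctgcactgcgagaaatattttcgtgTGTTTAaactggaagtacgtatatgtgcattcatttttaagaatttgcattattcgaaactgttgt
BBS1 and msl-3, a dosage compensation gene, start head to head around the BBS1 stretch. The summit lay 332 bp from the BBS1 start and nearer to that of msl-3, so the words are not assigned to either gene. IFT46 is transcribed from the minus strand and starts at the base left of the printed stretch, so its X-box is the word nearer to the start.

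In the pooled list the members' signal had a median of 73.3, with quartiles of 62.6 and 89.7, and a lowest and highest value of 55.5 and 114.7, against a median of 216 for the stronger promoter peaks. The deposited q-value of the members ran from 0.000379 to 0.047. Just inside the upper limit lay Sobp, rank 3919, with a signal of 114.7, and just outside, as the last peak of the reproducible list, lay vib with 114.8. At the lower limit ValRS, the valyl-tRNA synthetase gene, was the last member, rank 9999, with 55.5, and the peaks just below it also had 55.5. By distance, the summit at CG14505 lay at 1000 bp inside and that at CG32432 just beyond it outside. The limits cut a continuous run of values and not a gap.

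The 2 replicates placed the members differently, although the pooled signal is made from the reads of both. A replicate peak of ranks 1 to 10000 overlapped by at least 1 bp in both replicates for 1189 members (43.5%, 41.6 to 45.4%), in replicate 1 only for 788 (28.8%), in replicate 3 only for 572 (20.9%) and in neither for 184 (6.73%). Counting all 30000 ranks, 2289 members (83.8%) lay in a peak of both lists and 0 lay in a peak of neither, while 94 had no peak in replicate 1 and 350 none in replicate 3. The median rank was 6792 in replicate 1 and 6500 in replicate 3, with quartiles of 4743 and 10010 in replicate 1 and of 4568 and 10200 in replicate 3. All sets are cut by pooled rank, and the stronger set is the reproducible list, so their order in this measure is fixed by the choice and is a description only: 97.5% of the stronger promoter peaks, 6.08% of the weaker ones and 41.9% of the peaks of the band away from starts lay in the best 10000 of both replicates. The intervals of the members and of the band away from starts overlapped (41.6 to 45.4% and 40.2 to 43.6%).

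**Figure D1:**
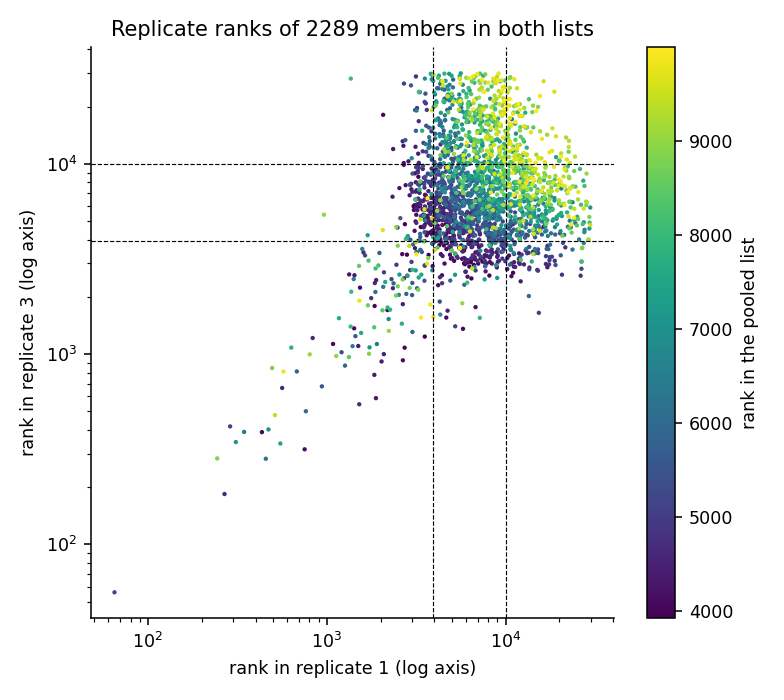
Each point is 1 of the 2289 members found in both replicate lists, with its rank in replicate 1 on the x axis and in replicate 3 on the y axis, both logarithmic, coloured by pooled rank. Dashed lines mark both limits of the band. Most points lie below the upper limit in both lists, and a thin tail of well-ranked points runs to the lower left.

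Along the band the share found in both replicates follows the pooled signal, which is made from both, and is likewise a description. It was 82.1% of members down to rank 5000, 69.9% from there to rank 6000, 43.1% to rank 7000, 24.8% to rank 8000, 18.9% to rank 9000 and 8.66% to rank 10000. The 10 members of highest signal are described next, and the pooled signal that chose them is made from both samples. Of the 10 highest, Sobp had a replicate 1 rank of 4640 and a replicate 3 rank of 4047, and pck, which encodes a claudin of septate junctions, 2734 and 4818. RpL38, a ribosomal protein gene, had ranks of 2807 in replicate 1 and 3332 in replicate 3, and TAF1B, a factor of RNA polymerase I, 3710 and 3322. CG18094, CG31751, CG5290, CG15023, CG12730 and Ate1, an arginyltransferase gene, made up the rest. All 10 had ranks between 2734 and 5748 in both lists. Some members slightly farther down differed more: Afg3l2 (pooled rank 3992) had no peak in replicate 1, and dysf (3994) had ranks of 11010 in replicate 1 and 2676 in replicate 3. Over the 2289 members in both lists, the replicate signals had a Spearman correlation of 0.0958. The choice by pooled signal bears on that value as well. Of the 3 lowest, mthl9 had ranks of 9625 in replicate 1 and 24254 in replicate 3, mrj 7574 and 23883, and ValRS 3365 and 1557. The ValRS summit lay 203 bp from a stronger summit, and the best start-site peak of the gene had rank 2148, so its replicate ranks can be those of a neighbour.

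A group of members with high replicate ranks sat on the flank of a stronger peak. The best pair of replicate ranks was at CG17778, 65 in replicate 1 and 56 in replicate 3, although this member had pooled rank 5123: its summit lay 200 bp from that of a reproducible peak, and the best start-site peak of the gene had rank 66. The same held for l(2)k01209, at 212 bp from a stronger summit, CG42258 at 214 bp, the neuropeptide receptor gene Dh31-R at 200 bp and CG42353 at 202 bp. Of 128 members whose replicate ranks were above the band in both lists, 107 overlapped a stronger pooled interval. In all, 152 members (5.56%) overlapped such an interval and 428 (15.7%) had a stronger summit within 1000 bp. Without the 152, 40.4% of members lay in the best 10000 of both replicates. When summits had to lie within 100 bp, the share over all members was 28.5%. A replicate rank is that of the best overlapping replicate peak, so for such members it can be the rank of the stronger neighbour. Among the members named below, those at Ufd4, CG3817, foxo, Mcm3, RpLP2, Rpn5, eIF3h, eIF1, COX8, Apc, Gli, Gr32a and pzg are of this kind, with a stronger summit 199 to 239 bp away.

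The largest rank ratios between replicates ran both ways. The member at kat80, a katanin subunit gene, had rank 26272 in replicate 1 and 2583 in replicate 3, with signals of 20.4 and 79.2. It is shared with Prosalpha4, a proteasome subunit gene that starts on the other side. CG9853 (26563 and 2809) was likewise ranked higher in replicate 3, as was CG3817 (15342 and 1648), whose summit lay 206 bp from a stronger one. Rpn2, a subunit of the proteasome's regulatory particle, had rank 2701 in replicate 1 and 26421 in replicate 3, with signals of 82.4 and 15.3, and the ubiquitin ligase gene Ufd4 had ranks of 1363 and 28055. The Ufd4 summit lay 212 bp from a stronger one, and the best start-site peak of the gene had pooled rank 1537.

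Members lay mostly upstream of their nearest start, less so than the stronger peaks. The summit was upstream in 1725 of 2733 members (63.1%, 61.3 to 64.9%), against 79.3% (77.6 to 80.9%) of the stronger and 45.9% (44.7 to 47.1%) of the weaker promoter peaks. The median position was 76 bp upstream for members, 127 bp upstream for stronger peaks and 39 bp downstream for weaker peaks. The stretch from 250 to 101 bp upstream held 18.4% of members (17.0 to 19.9%) and 35.8% of stronger peaks (33.8 to 37.8%), whereas the first 100 bp downstream held 10.03% of members and 6.58% of stronger peaks. Members lay between head-to-head starts in 487 cases (17.8%, 16.4 to 19.3%), against 33.8% (31.8 to 35.8%) of the stronger and 7.02% of the weaker peaks. A head-to-head pair here is a start to each side of the summit, pointing away from each other and at most 1000 bp apart.

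**Figure D2:**
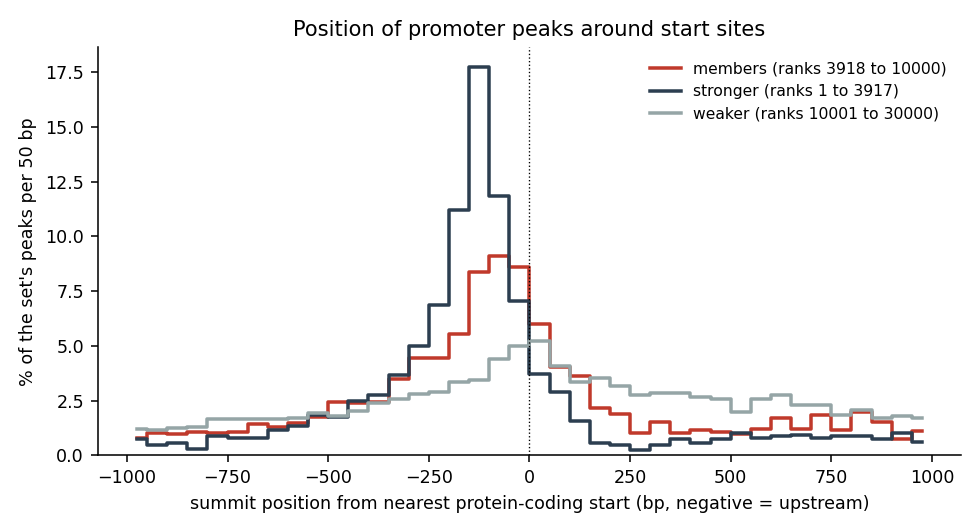
The x axis is the summit's position from the nearest protein-coding start in bp, negative upstream, and the y axis the percentage of each set's peaks in each 50 bp, for members, stronger and weaker promoter peaks. Members peak at a broader and lower maximum just upstream of the start than the stronger peaks, with at most 9.11% in 50 bp against 17.8%, and weaker peaks have at most 5.22%, just downstream of the start.

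By annotation, 990 member summits (36.2%) were intergenic, 915 (33.5%) in introns, 547 (20.01%) in 5' UTRs and 143 (5.23%, 4.43 to 6.14%) in coding exons. Coding exons held 0.574% of the stronger and 22.1% of the weaker promoter peaks, and 0.985% of the peaks of the band away from starts. The 5' UTR share of the stronger peaks was 12.01%, below the interval of the members (18.5 to 21.6%).

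Along the pooled ranks these features changed step by step. Upstream summits were 81.5% of promoter peaks of ranks 1 to 1000, 72.1% of members down to rank 5000, 55.8% of members between ranks 9000 and 10000 and 42.6% of promoter peaks beyond rank 25000. The head-to-head share was 35.8%, 22.5%, 11.9% and 5.71% at the same 4 steps. The mean GC content of the summit window was 32.8%, 35.6%, 40.7% and 43.5%. The short forkhead word TAAACA showed no steady fall down to rank 10000 and fell beyond it. It was held by 29.2%, 31.8%, 26.7% and 18.5% at the same 4 steps, and by 23.1% of promoter peaks of ranks 10001 to 15000. At the upper limit the upstream share was 74.2% in the last bin of stronger peaks and 72.1% in the first bin of members. At the lower limit it was 55.8% in the last bin of members and 48.9% in the next, which spans 5000 ranks instead of 1000.

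**Figure D3:**
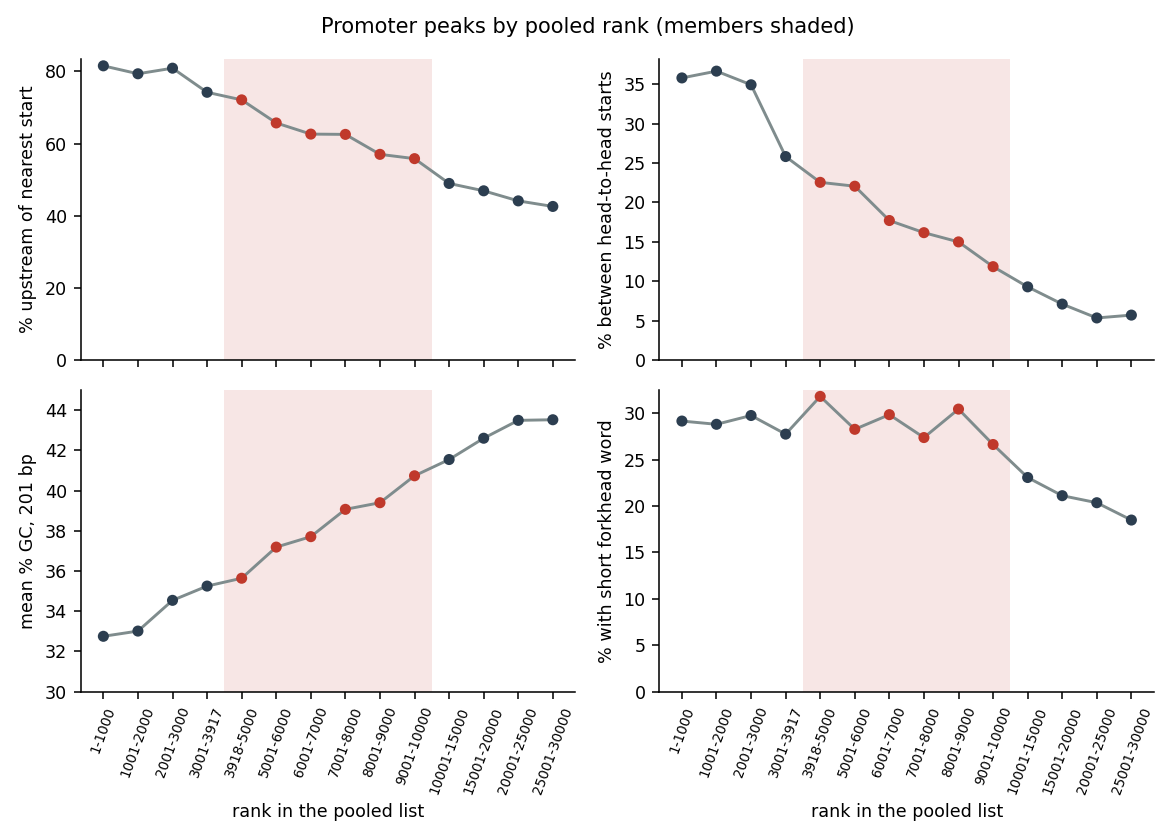
Each panel gives 1 feature of promoter peaks by bin of pooled rank on the x axis: the percentage upstream of the nearest start, the percentage between head-to-head starts, the mean percent GC (axis from 30 to 45) and the percentage with the short forkhead word. Red points in the shaded band are members; the upstream share falls from 72.1% to 55.8% across it and the GC content climbs from 35.6% to 40.7%.

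The same ordering held in each replicate's own list. In replicate 1, promoter peaks of the same ranks as the band (2852 peaks) were upstream in 53.3%, against 75.8% of those above it, and in replicate 3 (2438 peaks) in 67.1%, against 80.7%. Head-to-head shares were 14.3% in the replicate 1 band against 30.9% in its stronger peaks, and 17.2% in the replicate 3 band against 35.2% in its stronger peaks. Mean GC was 39.8% against 34.3% in replicate 1 and 37.9% against 33.4% in replicate 3. The 2 samples differed from each other as well. Members found in the best 10000 of replicate 1 only were upstream in 49.0% (45.4 to 52.5%), head-to-head in 10.5% (8.48 to 12.9%) and had 41.0 ± 8.43% GC (SD over 788 regions). Members found in replicate 3 only were upstream in 72.0% (68.2 to 75.7%), head-to-head in 23.3% (19.9 to 26.9%) and had 36.4 ± 7.65% GC (SD over 572 regions), close to the 68.3%, 20.3% and 36.9% of members found in both. Replicate and base composition therefore move together with position, and their part in the shares above was not tested.

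By chromosome, members were spread nearly as the start positions are, except on chromosome 4, where the weaker peaks of the pooled list were frequent too. The X held 469 members (17.2%, 15.8 to 18.6%), against 16.0% of stronger peaks, and 17.0% of all start positions lie there. The small chromosome 4 held 46 members (1.68%, 1.24 to 2.24%) at 35 different nearest genes, against 7 stronger peaks (0.309%, 0.124 to 0.636%) and 22 peaks of the band away from starts (0.657%), while 0.738% of start positions lie there. The weaker promoter peaks held 81 there (1.225%, 0.974 to 1.52%), an interval that overlaps that of the members. In the pooled list the high share was thus not particular to the band. By sample, the weaker promoter peaks held 110 there in replicate 1 (1.48%) and 27 in replicate 3 (0.524%), the latter below the band share of that sample. In the list of each sample the band share on chromosome 4 was also above that of the stronger peaks, and the samples were not tested against each other. The replicate 1 band had 53 promoter peaks on chromosome 4 (1.86%), against 10 of its stronger peaks (0.445%), and the replicate 3 band had 24 (0.984%) against 7 (0.302%). Of the 46 members, 35 overlapped a peak among the best 10000 in replicate 1 and 19 did so in replicate 3, where 19 others had no overlapping peak at all. Asator, a tau tubulin kinase gene on this chromosome with 5 start sites, had the most members of any gene, 6, with pooled ranks from 4308 to 9784 and signals from 56.3 to 106.5. All 6 overlapped a peak in replicate 1 and 5 did so in replicate 3.

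A member lay at a start site of 3007 of 13945 protein-coding genes (21.6%), and for 2265 of them (16.2% of all genes) it was the best-ranked start-site peak. The other 742 genes had a stronger start-site peak as well. Over all genes, the best start-site peak was a reproducible one for 2895, a weaker one beyond the band for 2986, and 5799 genes had none. A member counts for every gene with a start within 1000 bp of its summit, so it can lie nearer to another gene. Examples among the members named below are those of Mcm3 (nearest gene Rnp4F), Jarid2 (Uch-L5), Polr2C (PolG2), Taf13 (nesd) and Gr32a (Idua). Genes with 1 start site had a member in 16.1% (15.4 to 16.8%) and genes with 2 or more in 36.8% (35.3 to 38.4%), and the counts of lists by start-site number are given where they change how a list stands against all genes. Of the genes entered singly in the lists, 449 matched a current symbol and 20 an older one, and 9 that matched no gene or more than 1 were left out. After Asator, the most members were 5 each, at Aldh-III, an aldehyde dehydrogenase gene, PAN3, a deadenylase subunit gene, the centrosomal gene Plp and bun, a TSC22-type factor gene.

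Genes of the cilium, where fd3F is known to act, had members at shares whose intervals include that of all genes. Axonemal dynein and assembly genes had a member in 3 of 12, intraflagellar transport and BBSome genes in 4 of 22, transition zone and basal body genes in 2 of 11 and chordotonal transduction genes in 0 of 7 (interval up to 41.0%), against 21.6% of all genes. At Dnaaf5, a gene for a factor of dynein arm assembly, the member lay 52 bp upstream with pooled rank 3956 and signal 113.8, and had ranks of 3251 in replicate 1 (signal 72.6) and 8552 in replicate 3 (signal 29.8). At Dhc93AB, an outer arm dynein heavy chain gene, the member had pooled rank 6362 and signal 77.2, a replicate 3 rank of 8102 (signal 30.9) and no overlapping peak in replicate 1. At Dnai2, a dynein intermediate chain gene, it had pooled rank 9602 and signal 57.0, with ranks of 18264 in replicate 1 (signal 25.7) and 15360 in replicate 3 (signal 20.9). Of these 3 members, that at Dnaaf5 alone was among the best 10000 peaks of both samples.

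Of the transport genes, Oseg6, of the intraflagellar transport A complex, had pooled rank 4743 (signal 98.1), with ranks of 8653 in replicate 1 and 4027 in replicate 3, and its window held a forkhead word. BBS1, a BBSome subunit gene, had pooled rank 6043 (signal 80.4), with ranks of 7725 and 6596, and IFT46 had pooled rank 6076 (signal 80.1), with ranks of 5038 and 6267. These 3 were in the best 10000 of both replicates. IFT20 had pooled rank 8875 (signal 60.2) and ranks of 7024 in replicate 1 and 19394 in replicate 3. The sequences printed above for BBS1 and IFT46 held a DRE and an M1BP element in BBS1, and an X-box and a short forkhead word in IFT46. Both were chosen for such words, so their difference is no measure of the list. In the transition zone and basal body list Plp had rank 5469 (8344 in replicate 1, 5381 in replicate 3), and dila had rank 9474, in a coding exon, with no peak in replicate 3.

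Of 16 sensory organ transcription factor genes, Rfx and salm had a member (12.5%, against 21.6% of all genes) and none had a stronger start-site peak. The Rfx summit lay 17 bp upstream of the start at pooled rank 4618, with a signal of 100.3, and its ranks of 6608 in replicate 1 (signal 45.7) and 5058 in replicate 3 (signal 44.8) put it in the band of both. The salm member had rank 8169, in the 5' UTR, with rank 6268 in replicate 1 and no peak in replicate 3. In the forkhead family 3 of 17 genes had a member (17.65%, near the share of all genes), CHES-1-like (rank 4032), foxo (rank 4306) and FoxK (rank 4652), and each had a stronger peak too, at ranks 241, 866 and 1496.

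Genes of the signalling pathways had members most often of the 29 lists. Wingless pathway genes had one in 15 of 31 (48.4%, 30.2 to 66.9%), Notch pathway genes in 12 of 26 (46.2%, 26.6 to 66.6%) and EGF receptor pathway genes in 11 of 24 (45.8%, 25.6 to 67.2%), against 21.6% of all genes. With 1 start site the counts were 9 of 21 Wingless, 7 of 18 Notch and 3 of 12 EGF receptor genes, against 16.1% of all such genes. With 2 or more they were 6 of 10, 5 of 8 and 8 of 12, against 36.8%. In the Wingless list the co-receptor gene arr had pooled rank 4476, with 4417 in replicate 1 and 5588 in replicate 3, and pan, the TCF factor gene on chromosome 4, had rank 4965, with 8692 and 4829. Apc, of the destruction complex, had rank 5641 beside a stronger peak of rank 3501. CkIalpha, a kinase gene, had rank 4680 but rank 19939 in replicate 1 and no peak in replicate 3. The ligand gene wg had rank 8353, with 25047 in replicate 1 and 4746 in replicate 3.

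In the Notch list, Su(H), the DNA-binding factor of the pathway, had rank 4517 (7164 in replicate 1, 4342 in replicate 3) with a DRE in its window. The fucosyltransferase gene O-fut1 had rank 4419 (4223 and 5621), and the protease gene kuz rank 4943 (4978 and 12118). Nedd4, a ubiquitin ligase gene, had rank 4978 (9506 and 3880). Its summit lay in a coding exon, 875 bp downstream of the start, and the summit window had 65.7% GC. In the EGF receptor list the ligand gene spi had rank 4036 (6391 in replicate 1, 3104 in replicate 3) beside a peak of rank 231, the protease gene rho rank 4366 (4776 and 4515), the adaptor gene drk rank 4472 (6043 and 5035) and the ETS factor gene pnt rank 4139 (3099 and 4446). These 3 without a stronger peak were in the best 10000 of both samples. The member was the best start-site peak of 12 Wingless, 9 Notch and 7 EGF receptor genes. A reproducible peak was the best one in 22.6% of Wingless, 23.1% of Notch and 37.5% of EGF receptor genes, against 20.8% of all genes.

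Polycomb and trithorax group genes had a member in 15 of 36 (41.7%, 25.5 to 59.2%), against 21.6% of all genes. The best start-site peak was a reproducible one in 13 of the 36 (36.1%), against 20.8% of all genes, so the high share was not particular to the band. With 1 start site they were 9 of 20, against 16.1% of all such genes, and with 2 or more 6 of 16 (37.5%), against 36.8%. Jarid2 had rank 4123 (3363 in replicate 1, none in replicate 3), trx, a histone methyltransferase gene, rank 4452 (6371 and 5507), Utx, a histone demethylase gene, rank 4827 (5213 in replicate 1, none in replicate 3) and ph-p rank 4653 beside a peak of rank 12. Cell cycle and DNA replication genes had one in 17 of 50 (34.0%, 21.2 to 48.8%), namely 12 of 32 with 1 start (37.5%, against 16.1%) and 5 of 18 with more (27.8%, against 36.8%). The Cdk inhibitor gene dap had rank 4013 (5155 and 3091), the replicative helicase genes Mcm3 and Mcm5 ranks 4191 (4197 and 2303) and 4532 (8362 and 3547), and CycB3 rank 4529 (3746 and 5658). The summit counted for Mcm3 lay 996 bp from the Mcm3 start and 163 bp from that of Rnp4F.

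**Figure D4:**
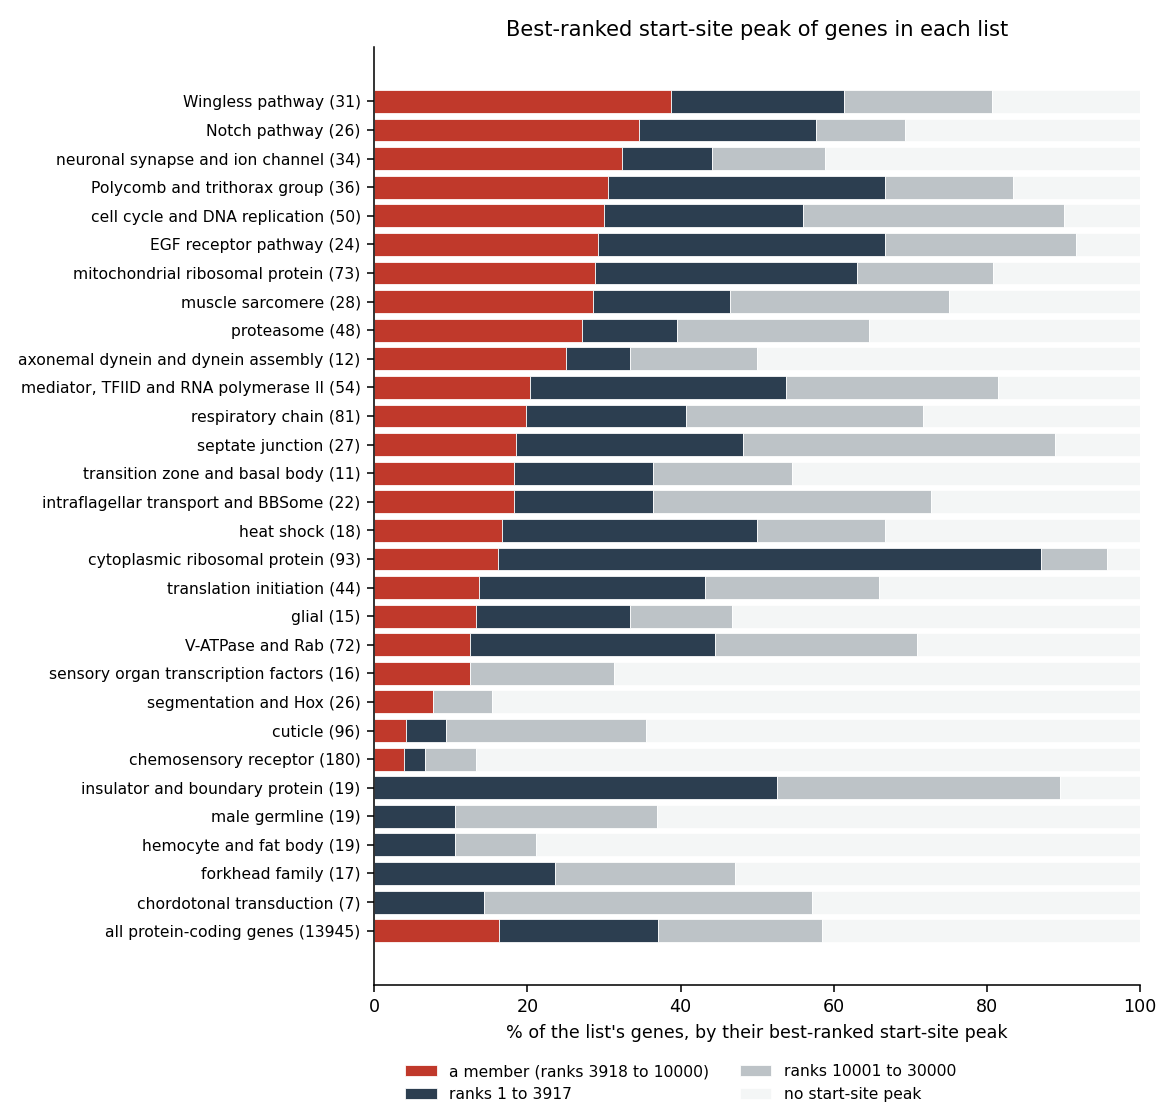
Each bar is 1 gene list, with its number of genes in brackets, split by the best-ranked start-site peak of its genes; the x axis is the percentage of genes. The red stretch, a member as best peak, is 38.7% of the Wingless list, and 16.2% of all protein-coding genes at the bottom.

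Genes of the basic cell machinery had members in 20.5 to 30.1%, against 21.6% of all genes, and the lists differed in how many genes had a stronger peak. Mitochondrial ribosomal protein genes had a member in 22 of 73 (30.1%, 19.9 to 42.0%) and in 19 of the 67 with 1 start (28.4%, against 16.1%), proteasome genes in 14 of 48 (29.2%), cytoplasmic ribosomal protein genes in 23 of 93 (24.7%), respiratory chain genes in 20 of 81 (24.7%), V-ATPase and Rab genes in 16 of 72 (22.2%), genes of Mediator, TFIID and RNA polymerase II in 12 of 54 (22.2%) and translation initiation genes in 9 of 44 (20.5%). For mitochondrial ribosomal protein genes the best peak was a reproducible one in 25 of 73 (34.25%), against 20.8% of all genes. The high share of that list was thus not particular to the band. For cytoplasmic ribosomal protein genes the best peak was a reproducible one in 66 of 93 and a member in 15, whereas for proteasome genes it was stronger in 6 of 48 and a member in 13. Rpt2 (rank 4418, with 6694 in replicate 1 and 3811 in replicate 3) and Rpn10 (rank 4470, with 4747 and 6160), both of the regulatory particle, were such proteasome genes, and Rpn5 (rank 4917, with 2452 and 2949) had a stronger peak of rank 2005 as well. Of ribosomal protein genes, RpS13 (rank 4563, with 5491 and 4724) carried a DRE in its window, RpLP2 (rank 4041, with 5778 and 1358) lay beside a stronger peak, and RpL35 (rank 4557, with 6724 and 3230) shared its member with Rab18, whose start lies on the other side. Mitochondrial examples were mRpS31 (rank 3942), mRpL18 (rank 4186), mRpS5 (rank 4211) and mRpL19 (rank 4445). COX8 and VhaM9.7-b shared 1 member, rank 4196, and further members lay at ND-B17, COX6B and ATPsynCF6 of the respiratory chain, at Taf13, Polr2C, MED25 and Taf11 of the transcription machinery, and at Rab40, eIF3h, eIF1, eIF4A and eIF4G1.

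Muscle sarcomere genes had a member in 10 of 28 (35.7%, 18.6 to 55.9%), neuronal synapse and ion channel genes in 13 of 34 (38.2%, 22.2 to 56.4%), septate junction genes in 11 of 27 (40.7%, 22.4 to 61.2%) and glial genes in 4 of 15 (26.7%). With 1 start site the counts were 2 of 9 muscle, 5 of 14 neuronal, 2 of 14 septate junction and 0 of 6 glial genes, against 16.1% of all such genes. With more they were 8 of 19, 8 of 20, 9 of 13 and 4 of 9, against 36.8%. Mef2, the muscle transcription factor gene, had rank 4425 (3135 in replicate 1, 12293 in replicate 3), Mf rank 5484 (8668 and 5496), Strn-Mlck rank 5543 (5005 and 7341) and Zasp52 rank 6438 (4318 and 16808). The potassium channel genes Shab and slo had ranks 4756 (6801 and 5976) and 5439 (6394 and 6351), the syntaxin gene Syx1A rank 4985 (3677 and 8882), and the channel gene sei rank 5278 beside a peak of rank 1871. Of glial and junction genes, nrv2, on both lists, had rank 4771 (5067 and 4393), loco rank 4203 (3529 and 5098), Gli, gliotactin, rank 4478 (1889 and 2450) beside a peak of rank 2252, and scrib rank 4699 (21575 and 3640). Indy, moody and Atpalpha completed the named ones. The lower ends of the 4 intervals lay between 7.79 and 22.4%.

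Members were rare at cuticle genes, 4 of 96 (4.17%, 1.15 to 10.3%), and at chemosensory receptor genes, 9 of 180 (5%, 2.31 to 9.28%), both below 21.6% and, with 1 start site, at 4 of 86 and 9 of 167, below 16.1%. Reproducible start-site peaks were rare there too, at 5 of 96 (5.21%) and 5 of 180 (2.78%), against 20.8% of all genes. No start-site peak of any rank lay at 62 of the cuticle and 156 of the chemosensory receptor genes. Cpr65Av had rank 5159 (4999 in replicate 1, 5930 in replicate 3) and Cpr67Fa1 rank 6619, and Lcp65Ae and Lcp65Af shared the member of rank 9066. The gustatory receptor gene Gr32a had rank 4034 beside a peak of rank 1819, Gr63a, a carbon dioxide receptor gene, rank 5687 and Ir31a rank 5889, and Gr97a also had a member. Segmentation and Hox genes had members at Antp (rank 5312, with 5050 and 8218) and wg alone, 2 of 26 (7.69%, 0.946 to 25.1%). Hemocyte and fat body genes had 1 of 19 (ush, rank 6784) and male germline genes 1 of 19 (vas, rank 9726), each 5.26% (0.133 to 26.0%). Members were not rare on 2 other lists, against the same 21.6% of all genes. Insulator genes had 4 of 19 (BEAF-32, pzg, Trl and pita, 21.05%) and heat shock genes 3 of 18 (Hsp60A, DnaJ-1 and Hsf, 16.67%, 3.58 to 41.4%). The best start-site peak was a reproducible one for 10 of the 19 insulator genes and a member for 0.

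Forkhead words were more frequent at member summits than beside them. The full word GTAAACA was held by 8.12% of members (7.13 to 9.21%), against 4.65% (4.10 to 5.24%) of windows 1000 bp to each side and 5.52% (5.20 to 5.85%) of windows of the same length just upstream of all protein-coding starts. The short word TAAACA, which every full word contains, was held by 29.2% of members (27.5 to 30.9%), against 18.1% (17.1 to 19.1%) and 22.1% (21.5 to 22.7%). Stronger promoter peaks held them in 7.07% (6.05 to 8.20%) and 28.9% (27.1 to 30.9%), and peaks of the band away from starts in 7.61% (6.74 to 8.56%) and 26.9% (25.4 to 28.5%). These intervals overlap those of the members. Overlap is no test, and a difference by rank or by nearness to a start was not tested. Weaker promoter peaks held them in 5.79% and 20.9%. In the bands of the replicate lists the short word was held by 27.6% (replicate 1) and 27.2% (replicate 3) and the full word by 7.96% and 7.71%.

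Base composition moved with these words, since members had 38.2 ± 8.45% GC (SD over 2733 regions), against 43.1 ± 9.83% beside them and 39.8 ± 8.97% upstream of all starts. Within classes of equal GC the difference depended on the class. Below 30% GC the short word was held by 34.3% of members (30.04 to 38.8%), 35.03% of the side windows and 34.0% of all upstream windows. Between 35 and 40% GC it was held by 33.4% of members (29.7 to 37.3%), against 23.9% (21.1 to 26.9%) and 24.9% (23.5 to 26.3%). Between 40 and 45% GC the shares were 28.9% (24.8 to 33.3%), against 18.4% (16.0 to 21.0%) and 19.2% (17.9 to 20.6%). From 45% GC upward the short word was held by 17.5% (14.5 to 20.8%), against 7.92% (6.86 to 9.08%) and 11.95% (11.1 to 12.8%). From 35% GC upward the intervals of the members' short-word shares thus lay above those of both other sets, and below 35% GC they overlapped. Stronger promoter peaks held the short word in 23.0% of windows between 35 and 40% GC (19.4 to 27.0%), 29.8% between 40 and 45% GC (24.0 to 36.1%) and 14.3% from 45% GC upward (9.17 to 20.8%), so that the members' interval lay above theirs in the first of these classes and overlapped it in the other two. For the full word the members' interval lay above those of both sets between 40 and 45% GC alone, at 10.8% of members (8.11 to 14.1%), against 5.75% (4.35 to 7.43%) and 5.88% (5.10 to 6.73%). Between 30 and 35% and between 35 and 40% GC it lay above that of all upstream windows and overlapped that of the side windows. From 45% GC upward the full word was held by 4.45% of members (2.93 to 6.46%), 2.88% of side windows and 4.60% of upstream windows, and below 30% GC by 7.25%, 5.78% and 5.95%.

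**Figure D5:**
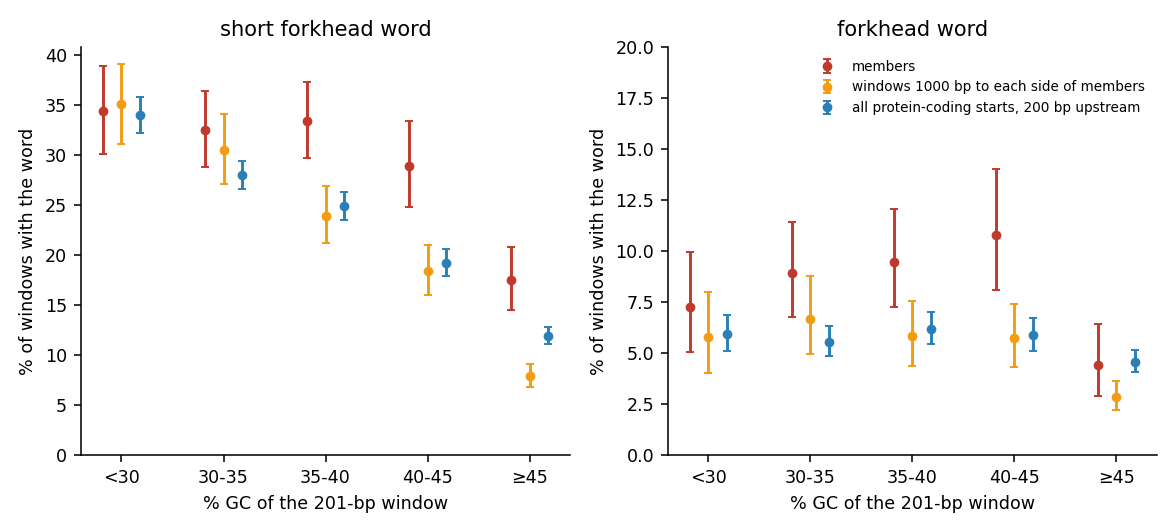
The x axis gives classes of GC content of the summit window and the y axis the percentage of windows with the short (left) or full (right) forkhead word, with exact 95% intervals, for members, windows 1000 bp to each side and windows upstream of all protein-coding starts. From 35% GC upward the members' short-word shares lie above both other sets, with 33.4% against 23.9% and 24.9% between 35 and 40% GC.

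Promoter words followed position. The DRE was held by 4.68% of members (3.92 to 5.54%), against 0.878% of the side windows, 0.537% of the peaks of the band away from starts, 4.55% of stronger promoter peaks and 6.21% (5.87 to 6.56%) of windows upstream of all starts. It was held by 6.20% of upstream members, 2.08% of downstream members and 14.0% (11.01 to 17.4%) of the head-to-head members, and by 8.15% of members within 250 bp of a start and 0.635% of those farther away. The word CGATA, part of every DRE and linked to the insulator protein BEAF-32, was held by 31.8% of members and 36.6% of all upstream windows, and by 50.7% of head-to-head members. The M1BP element was held by 3.04% of members (2.43 to 3.75%) and 3.34% of all upstream windows. The TATAAA word was held by 31.7% of members (29.98 to 33.5%), 41.7% of stronger peaks and 33.6% of all upstream windows, and the tract AAAAAAA by 21.4%, 24.0% and 19.0%. The GAGAG word was held by 20.9% of members (19.4 to 22.4%), below the 25.3% of all upstream windows, the E-box CANNTG by 61.3% against 61.9%, the CAGGTAG word of the factor Zelda by 0.878% against 1.19%, and the X-box by 3.37% (2.72 to 4.11%) against 3.24%. Each word was searched on both strands, matches of different words may overlap, and a match is a stretch of letters and not a measured site.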

How the data were processed

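ChIP-seq peak lists of 2 samples of 1 group were used as deposited, on build dm6 per the labels: a list for each replicate, a pooled list and a list of reproducible peaks. The deposited signal value is a score of the authors' peak caller, with its own scale in every list, and ranked the peaks of that list only. The deposited −log10 q-values were converted to q-values for description. The reproducible list holds the same 3917 peaks as the top of the pooled list, so members have ranks 3918 to 10000. The sources used here give no caller, aligner, reproducibility threshold or read depth, and the control is not analysed here.

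Start sites came from the Ensembl 115 annotation (19252 positions of 13945 protein-coding genes on 6 arms), and 13943 of 13944 genes matched by symbol had the same coordinates in the RefSeq Release 6 table. Sequences came from the RefSeq genome. Peak look-ups, word searches and shares used Python (3.11.15), scipy (1.17.1) for intervals, pandas (2.3.3) and numpy (2.4.6) for tables and matplotlib (3.10.9) for plots, and were tested on simulated data. The best-ranked replicate peak overlapping by at least 1 bp gave a member its replicate rank. No p-value was computed.

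Entries of the gene lists were matched by current symbol or by an older symbol that 1 RefSeq gene alone carries. The members, the 29 gene lists and the 11 words were chosen with earlier results of these data known. The named members are the 10 highest and 3 lowest in signal, the 5 best ranked in both replicates, the 5 of largest rank ratio, all at cilium and sensory factor genes, the forkhead genes and, of each other list, up to 4 of highest signal. Alternatives changed the start-site window, the start sites, the list, the q-value limit, the part of the band, the word window and the overlap rule. That without members on the flank of a stronger peak was chosen after seeing the data.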

Additional observations from a re-analysis of the deposited data

How the results depend on the processing

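Of 76 alternative values for shares and means, 46 stayed within the spread and 30 moved beyond it. Of 20 for the counts of members and genes, which have no spread, 16 stayed within 1.5 times. Limiting q to at most 0.05 removed no member, and under every alternative most members lay upstream. Stronger and weaker peaks were recomputed in the replicate lists only, and the other sets not at all, so other directions were not checked. The X share of the band was 15.0% against 15.6% of stronger peaks in replicate 1, and 16.9% against 15.9% in replicate 3. With start-site windows of 500 and 2000 bp the head-to-head share was 23.9% and 13.7%, and the share of genes without a stronger start-site peak 83.0% and 66.5%. With 1 start site per gene this share was 82.4%. With start sites of all annotated genes the short forkhead share was 28.9%. The upper and lower parts of the band gave 1437 and 1296 members, 1748 and 1534 genes, head-to-head shares of 21.0% and 14.4%, 74.4% and 62.9% of genes without a higher-ranked start-site peak, 36.7% and 39.7% GC, short forkhead shares of 30.3% and 28.0%, and 66.7% and 17.8% found in both replicates. Windows of 50 and 250 bp to each side held the short forkhead word in 15.2% and 52.3%. Found in both replicates were 28.5% with summits within 100 bp, 4.68% among ranks above the band, 83.8% over all 30000 ranks and, without members overlapping a stronger peak, 40.4%; that choice also gave 79.8% of genes without a stronger peak. With 1 replicate's list alone, the number of members ranged from 2438 to 2852, the upstream share from 53.3% to 67.1%, the head-to-head share from 14.3% to 17.2%, genes with a member from 2667 to 3115, those without a stronger peak from 74.3% to 75.2%, the X share from 15.0% to 16.9%, GC from 37.9% to 39.8% and the short forkhead share from 27.2% to 27.6%. No paired analysis was possible because there is 1 group. The spread is that of 2 replicate lists, or the counting interval for the overlap of replicates, so it is itself imprecise, and whole embryos and the absence of control values here limit what a peak of this signal can be read as.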
